A study of Mus musculus with 6 samples.

Results

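The Frizzled receptors and the co-receptors LRP5 and LRP6 form the cell-surface complex that receives Wnt ligands. The genes described here are Fzd1 to Fzd8, Lrp5 and Lrp6, 10 of the 53953 rows in each library, chosen by name and matched through their Ensembl identifiers. They were measured by RNA sequencing in organoids, epithelial cultures kept in Matrigel, made from the proximal small intestine of C57BL/6 wild-type mice and used at passage 3 to 5. Of the 6 libraries, 3 came from organoids treated during the 3 days before passaging with the polyunsaturated fatty acid arachidonic acid, and 3 from control organoids that received its vehicle alone, 0.1% ethanol, so that both groups were exposed to ethanol. RNA was taken on day 3 after passaging in both groups. The dose of arachidonic acid and the age and sex of the mice were not given in the sources used here. Whether replicate libraries stem from different cultures or mice is not stated, so the p-values describe library-to-library spread only, possibly technical.

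A Frizzled protein binds the lipid-carrying Wnt ligand through an extracellular cysteine-rich domain and passes the signal to Dishevelled through its cytoplasmic face. LRP5 or LRP6, single-pass relatives of the LDL receptor, joins the complex, and its phosphorylated tail holds Axin at the membrane, so that beta-catenin escapes degradation and works with TCF factors in the nucleus. In the crypt this signal sustains stem cells. Fzd7 is known as a receptor of intestinal stem cells, Fzd5 for its part in Paneth cell maturation, and the ligases RNF43 and ZNRF3 remove Frizzled and LRP6 from the surface. Because expression was measured in whole organoids, fewer cells of a type and less RNA per cell cannot be told apart.

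Levels are given as FPKM, fragments scaled by gene length and library total. The values implied a depth of 35.6 M to 50.8 M fragments per library. Arachidonic acid replicate 1 stood apart. Its position was read on a scale linear in FPKM. On that scale 0 is the vehicle mean of a gene and 1 its average over arachidonic acid replicates 2 and 3. The median position was 0.58 over the 3052 genes that passed the test below and differed by 0.5 log2 units or more. Calls are therefore also given without that replicate. The 7 epithelial markers summed to 2957 to 3063 FPKM with vehicle and 4360 to 5250 FPKM with arachidonic acid; Krt8, Krt18 and Krt19 rose, Epcam and Cdx2 fell, and Cdh1 and Vil1 did not pass the test. The 10 fibroblast and smooth muscle markers summed to 0.335 to 0.434 FPKM with vehicle and 0.247 to 0.509 FPKM with arachidonic acid, with Lum listed at 0 in all 6 libraries. The 5 endothelial markers summed to 0.223 to 0.412 and 0.445 to 0.810 FPKM, with Cdh5 listed at 0 in all 6. The 6 immune markers summed to 1.80 to 2.44 and 4.05 to 24.6 FPKM, and the 1 tested, the macrophage marker Cd68, rose from 1.90 ± 0.323 to 14.7 ± 10.4 FPKM (limma adjusted p = 0.028). The part of these cell types in the receptor values was not tested.

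Arachidonic acid was accompanied by changes in both directions among the receptor genes. Fzd2, Fzd1 and Fzd5 fell (8.85-fold, 4.48-fold and 1.58-fold), Lrp5 and Fzd7 rose (2.19-fold and 1.36-fold), and Lrp6, Fzd4 and Fzd8 did not pass the test. The test was limma on log2(FPKM + 1) over the 12913 genes whose mean reached 1 FPKM, with two-sided p-values adjusted by Benjamini-Hochberg and a threshold of 0.05. Of the 10 genes 8 were tested, 2 higher and 3 lower, against a background of 20.8% of all tested genes called higher and 19.4% called lower (40.2% in either direction). The groups did not overlap for these 5 genes, as for 55.0% of all tested genes. Without arachidonic acid replicate 1 the same 2 genes were higher and the same 3 lower, in a fit that called 59.8% of 12947 genes (27.5% higher and 32.4% lower). Fzd1 and Fzd2 lay under 1 FPKM in every arachidonic acid library and passed the filter only through their vehicle values, so the count is a description.

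**Figure D1:**
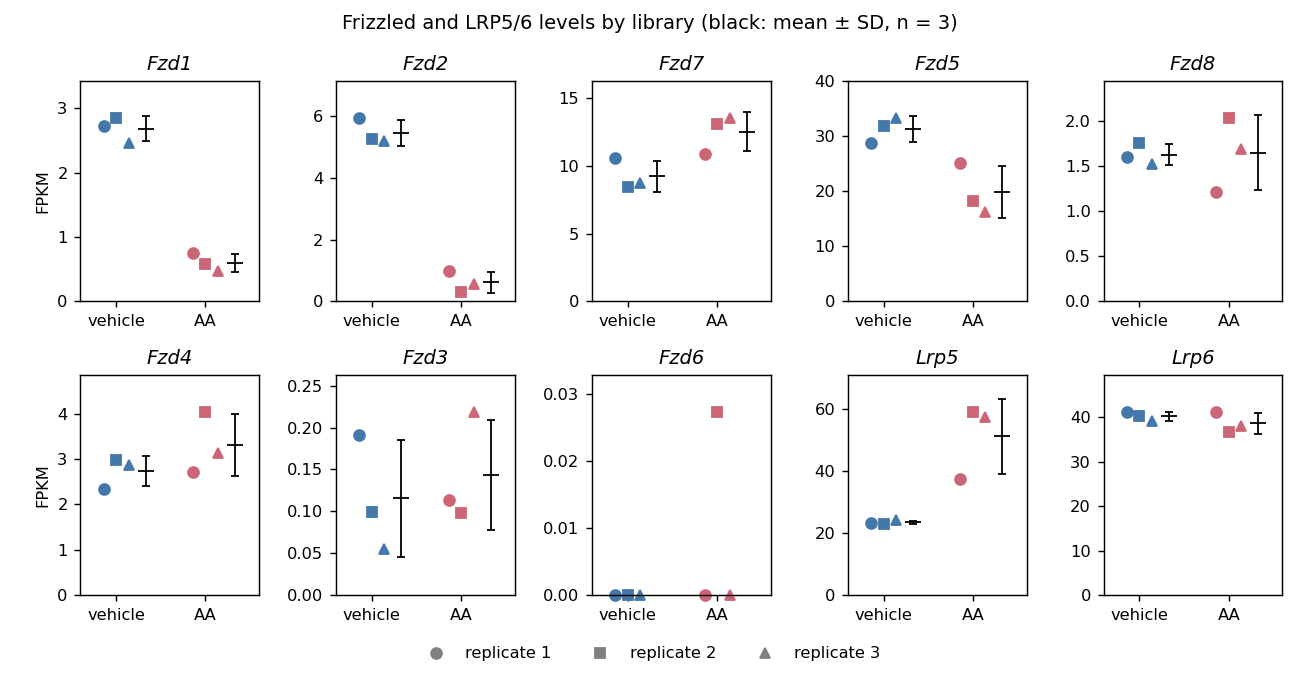
FPKM of each Frizzled and LRP gene in each library, with vehicle in blue and arachidonic acid (AA) in red, 1 symbol per replicate number and the mean ± SD (n = 3) in black, drawn on a linear axis from 0 for each gene (no mean for Fzd6). Fzd1, Fzd2 and Fzd5 lie lower and Fzd7 and Lrp5 higher in all 3 arachidonic acid libraries than in any vehicle library, and the groups overlap for the other 5 genes.

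Fzd1, Fzd2 and Fzd7 are the closest relatives of one another in the family. Fzd2 (ENSMUSG00000050288) was at 5.94, 5.25 and 5.18 FPKM in vehicle replicates 1, 2 and 3 and at 0.973, 0.315 and 0.562 FPKM in arachidonic acid replicates 1, 2 and 3. The arachidonic acid libraries were all far below the vehicle libraries, with replicate 2 the lowest. These levels rest on 703 to 813 fragments with vehicle and on 181, 41 and 100 fragments with arachidonic acid. The mean fell from 5.46 ± 0.421 to 0.617 ± 0.333 FPKM (SD, n = 3, as for all means that follow), an 8.85-fold lower level. The log2 difference was -2.02 (SE 0.17, limma adjusted p = 0.00084), and with no filter the limma adjusted p was 0.019. Such a difference understates the change of low genes because 1 is added to the FPKM.

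Fzd1 (ENSMUSG00000044674), a receptor that like Fzd2 serves beta-catenin signalling in many tissues, was at 2.73, 2.85 and 2.47 FPKM with vehicle and at 0.751, 0.576 and 0.471 FPKM with arachidonic acid, on 399 to 438 and 86 to 160 fragments. The groups were well separated, and the mean fell from 2.68 ± 0.198 to 0.599 ± 0.141 FPKM, 4.48-fold (log2 difference -1.21, SE 0.13, limma adjusted p = 0.0016). With no filter the limma adjusted p of Fzd1 was 0.017. Fzd7 (ENSMUSG00000041075) went the other way. It was at 10.6, 8.45 and 8.73 FPKM with vehicle and at 10.9, 13.1 and 13.6 FPKM with arachidonic acid, so that the lowest treated library, replicate 1, lay just above the highest vehicle library. The mean level of Fzd7 rose from 9.25 ± 1.14 to 12.5 ± 1.42 FPKM, a ratio of 1.36 (log2 difference 0.40, SE 0.12, limma adjusted p = 0.036). The call for Fzd7 was lost with quantile normalization (adjusted p = 0.057), with the replicate number as a block (adjusted p = 0.091), with no filter (adjusted p = 0.19) and without any 1 of vehicle replicates 2 and 3 and arachidonic acid replicates 2 and 3 (adjusted p = 0.11 to 0.12), and without arachidonic acid replicate 1 it was at 0.49 (adjusted p = 0.0042).

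Within this trio the make-up shifted. Of the summed FPKM of Fzd1, Fzd2 and Fzd7, Fzd7 held 54.9%, 51.0% and 53.3% with vehicle and 86.4%, 93.6% and 92.9% with arachidonic acid. The sum of the trio was 17.4 ± 1.6 FPKM with vehicle and 13.8 ± 1.0 FPKM with arachidonic acid, with no overlap (16.4 to 19.2 and 12.6 to 14.6 FPKM). These sums and shares are descriptions and were not tested.

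Fzd5 and Fzd8 form another pair of close relatives. Fzd5 (ENSMUSG00000045005) was the most abundant Frizzled in every library. It was at 28.7, 31.8 and 33.4 FPKM with vehicle and at 25.1, 18.2 and 16.2 FPKM with arachidonic acid, on 3171 to 6308 fragments. Arachidonic acid replicate 1 lay closest to the vehicle libraries, without reaching them. The mean fell from 31.3 ± 2.36 to 19.8 ± 4.71 FPKM, 1.58-fold (log2 difference -0.65, SE 0.16, limma adjusted p = 0.018). The adjusted p was 0.15 when genes of any level were tested, and the call was also lost without vehicle replicate 2 or 3 or arachidonic acid replicate 2 or 3 (adjusted p = 0.062, 0.067, 0.060 and 0.054), and without arachidonic acid replicate 1 the log2 difference was -0.83 (adjusted p = 9.5e-05). Fzd8 (ENSMUSG00000036904) was at 1.6, 1.76 and 1.53 FPKM with vehicle and at 1.21, 2.04 and 1.70 FPKM with arachidonic acid. The treated libraries lay on both sides of the vehicle libraries, and the difference was near 0 (limma adjusted p = 0.996, 95% interval -0.37 to 0.37 on the log2 scale).

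Of the remaining Frizzled genes 1 was tested. Fzd4 (ENSMUSG00000049791), which also serves as the receptor of Norrin, was at 2.35, 2.97 and 2.86 FPKM with vehicle and at 2.71, 4.05 and 3.14 FPKM with arachidonic acid. The groups overlapped through arachidonic acid replicate 1, and the log2 difference was 0.20 (SE 0.15, limma adjusted p = 0.32, 95% interval -0.16 to 0.56). Fzd3 and Fzd6, best known from planar cell polarity, fell under the filter. Fzd3 (ENSMUSG00000007989) was at 0.191, 0.0998 and 0.0552 FPKM with vehicle and at 0.114, 0.0982 and 0.219 FPKM with arachidonic acid, on 14 to 70 fragments, and the groups overlapped. Fzd6 (ENSMUSG00000022297) was listed at 0 in 5 libraries and at 0.0274 FPKM, or 2 fragments, in arachidonic acid replicate 2. A count of 0 allows up to 3 fragments, 0.0288 to 0.0411 FPKM depending on the library, so no difference was detectable at this depth.

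Of the co-receptors only Lrp5 passed the test. Lrp5 (ENSMUSG00000024913) was at 23.2, 22.9 and 24.1 FPKM with vehicle and at 37.3, 59.1 and 57.2 FPKM with arachidonic acid, on 4112 to 13646 fragments. All treated libraries lay above the vehicle libraries, with replicate 1 the lowest of them. The mean rose from 23.4 ± 0.610 to 51.2 ± 12.1 FPKM, a ratio of 2.19 (log2 difference 1.07, SE 0.17, limma adjusted p = 0.0047). With genes of any level tested the adjusted p was 0.064, and without arachidonic acid replicate 1 the log2 difference was 1.28 (adjusted p = 1.4e-06).

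Lrp6 (ENSMUSG00000030201) was at 41.3, 40.3 and 39.3 FPKM with vehicle and at 41.3, 36.7 and 38.1 FPKM with arachidonic acid. The groups overlapped, at means of 40.3 ± 1.03 and 38.7 ± 2.36 FPKM (log2 difference -0.06, SE 0.07, limma adjusted p = 0.52, 95% interval -0.22 to 0.10). The ratio of Lrp5 to Lrp6, which was not tested, was 0.561, 0.569 and 0.613 with vehicle and 0.902, 1.61 and 1.5 with arachidonic acid. The level of this ratio depends on gene length: the length that gives whole fragments for Lrp6, a mean over 6 transcripts, is 2960 bases, shorter than its 4839 coding bases, whereas that of Lrp5 is 4912. In fragments, without length, the ratio of Lrp5 to Lrp6 was 0.931, 0.944 and 1.02 with vehicle and 1.5, 2.67 and 2.49 with arachidonic acid. The treated libraries were higher on both scales, but which of the co-receptors was the more abundant cannot be read from them.

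FPKM is scaled by length, so levels can be set in order across genes as far as those lengths hold. For Lrp6 and Fzd6 they are shorter than the coding sequence, which raises their FPKM, and for Fzd8 the length could not be matched. With vehicle the order of the means was Lrp6, Fzd5, Lrp5, Fzd7, Fzd2, Fzd4, Fzd1, Fzd8, Fzd3 and Fzd6. Fzd4 and Fzd1 were the only neighbours in it whose libraries overlapped (2.73 ± 0.331 and 2.68 ± 0.198 FPKM). With arachidonic acid the order was Lrp5, Lrp6, Fzd5, Fzd7, Fzd4, Fzd8, Fzd2, Fzd1, Fzd3 and Fzd6, and the overlapping neighbours were Lrp5 with Lrp6 and Fzd2 with Fzd1.

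**Figure D2:**
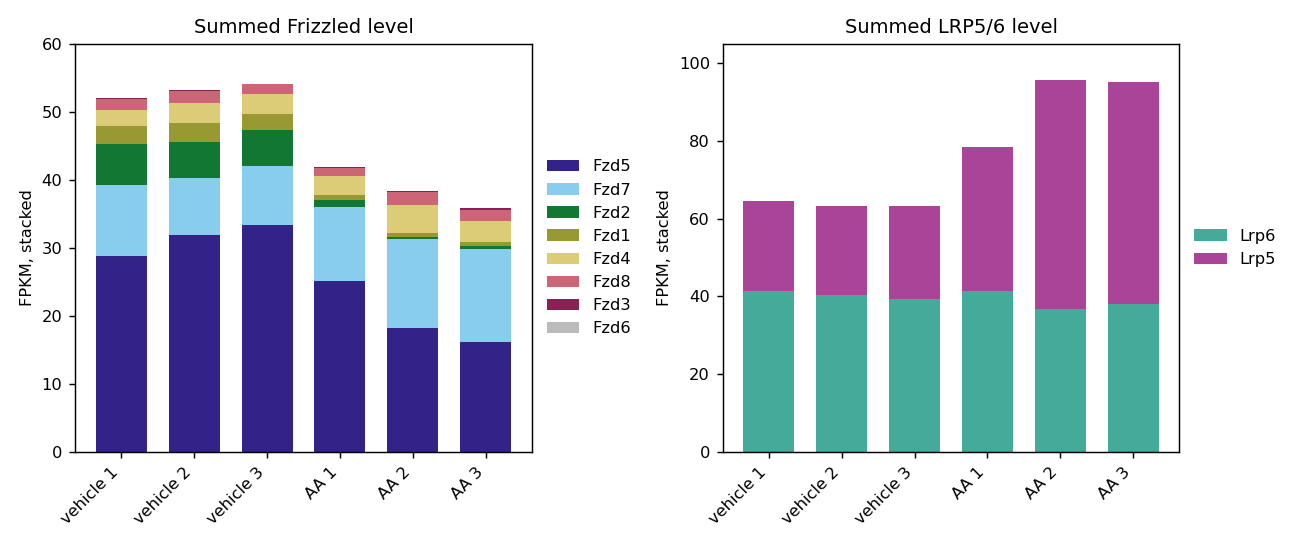
Stacked FPKM of Fzd1 to Fzd8 (left) and of Lrp5 and Lrp6 (right) in each library, with 1 bar per library and an axis from 0. The Frizzled sum is 52.1 to 54.2 FPKM with vehicle and 35.9 to 41.8 FPKM with arachidonic acid (AA), and the LRP sum is 63.2 to 64.5 and 78.6 to 95.8 FPKM.

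Summed over Fzd1 to Fzd8, the Frizzled level was 53.2 ± 1.04 FPKM with vehicle and 38.7 ± 3.00 FPKM with arachidonic acid. The groups did not overlap. Fzd5 held 55.2% to 61.6% of the sum with vehicle and 45.2% to 60.1% with arachidonic acid, ranges that overlap through arachidonic acid replicate 1. Fzd7 held 15.9% to 20.3% with vehicle and 26.1% to 37.8% with arachidonic acid, and Fzd2 held 9.55% to 11.4% and 0.819% to 2.33%. The level of Fzd5 over that of Fzd7 was 2.72 to 3.82 with vehicle and 2.30, 1.38 and 1.19 in arachidonic acid replicates 1, 2 and 3. The summed LRP level, which carries the same limit on Lrp6, was 63.7 ± 0.744 FPKM with vehicle and 89.9 ± 9.81 FPKM with arachidonic acid.

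**Figure D3:**
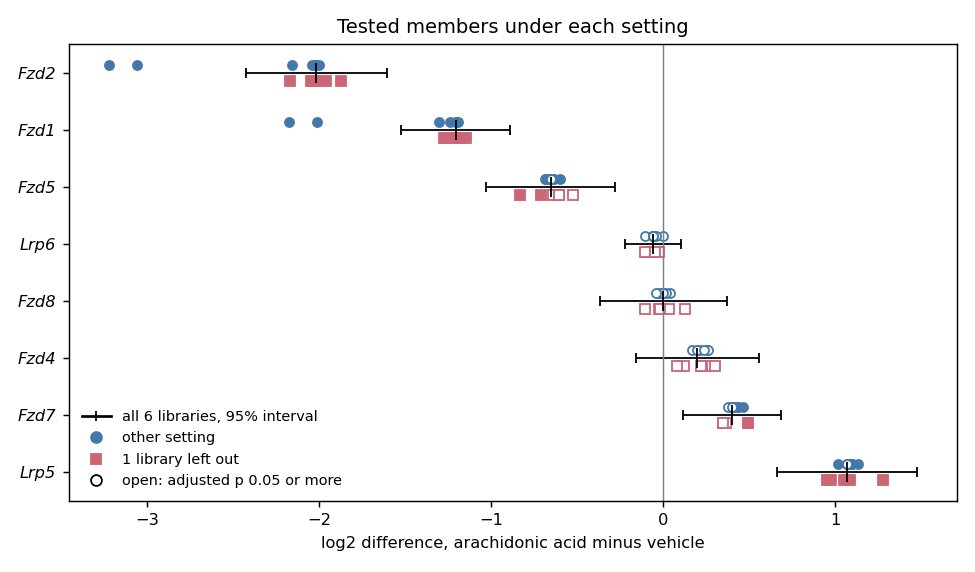
Log2 difference (arachidonic acid minus vehicle, horizontal axis) of the 8 tested genes with all 6 libraries (black, with the 95% interval), under other settings (blue circles) and with 1 library left out (red squares), open where the adjusted p was 0.05 or more. The symbols of Fzd2 and Fzd1 are filled throughout, from -3.22 to -1.88 and from -2.18 to -1.15, whereas some of those of Fzd5, Fzd7 and Lrp5 are open. Fzd1 and Fzd2 passed the filter only through their vehicle values.

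The 5 genes that passed also differed in where arachidonic acid replicate 1 lay. For Fzd1 and Fzd2 it was at 0.89 on the scale given above. For Fzd5, Fzd7 and Lrp5 it was at 0.44, 0.41 and 0.40. Because the scale is linear in FPKM, a deep fall can lie near 1 even where replicate 1 is well above replicates 2 and 3. Olfm4, at 0.85, was at 33.8 FPKM in replicate 1 and at 4.32 and 5.91 FPKM in replicates 2 and 3. Positions of deep falls and of smaller changes are therefore not directly comparable, and none was computed on a log scale. Called markers of several epithelial cell types lay at a range of positions. Their counts stand beside 20.8% of all tested genes called higher and 19.4% called lower. All 6 markers of enteroendocrine cells, the hormone-producing cells of the epithelium, fell (Chga, Chgb, Neurod1, Cck, Gip and Gcg), from a sum of 598 to 704 FPKM with vehicle to 114 to 154 FPKM with arachidonic acid. Neurod1 lay under 1 FPKM in every arachidonic acid library and passed the filter only through its vehicle values, so its call is a description. Replicate 1 was at 0.74 (Neurod1) to 1.0 on that scale for the enteroendocrine markers and at 0.44 to 0.94 for the 6 Paneth cell markers called. It was at 0.58 to 0.93 for the 4 goblet cell markers called and at 0.50 to 0.85 for the 4 stem cell markers called. For the 5 enterocyte markers called it was at 0.28 to 2.6. The part of these cell types in the falls of Fzd1 and Fzd2 was not tested.

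**Figure D4:**
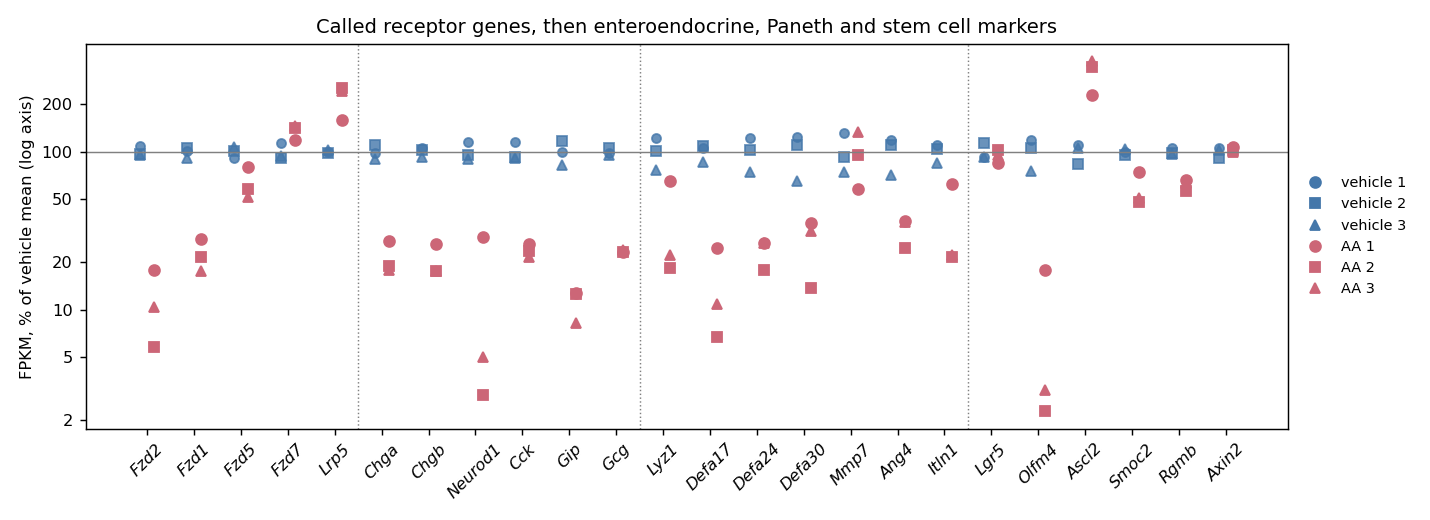
FPKM of the 5 called receptor genes and of 6 enteroendocrine, 7 Paneth cell and 6 stem cell markers (left to right) in each library as a percentage of that gene's vehicle mean, on a log axis, with vehicle in blue and arachidonic acid (AA) in red. In arachidonic acid replicate 1 Fzd2 and Fzd1 are at 17.8% and 28.0% and Fzd5 at 80.3%, the enteroendocrine markers are at 12.7% to 28.8%, and the Paneth cell markers at 24.5% to 65.0%. The stem cell markers in that library are at 17.8% (Olfm4) to 231% (Ascl2).

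Markers of other epithelial cell types moved as well. The counts are descriptions, to be read beside the 20.8% of all tested genes called higher and the 19.4% called lower. Of 7 Paneth cell markers 6 fell, from a sum of 2062 to 3132 FPKM with vehicle to 476 to 1056 FPKM with arachidonic acid, beside the fall of Fzd5. Mmp7 did not pass, at 5.09 and 4.89 FPKM. Of 6 crypt stem cell markers 1 rose (Ascl2) and 3 fell (Olfm4, Smoc2 and Rgmb), beside the rise of Fzd7. Lgr5, at means of 78.8 and 74.1 FPKM, and Axin2, at 122 and 126 FPKM, did not pass. The 6 summed to 653 to 737 FPKM with vehicle and 397 to 469 FPKM with arachidonic acid. The largest falls within that sum were those of Olfm4, from 190 to 14.7 FPKM, and Smoc2, from 215 to 125 FPKM. All 4 tested goblet cell markers of 6 fell (901 to 1095 and 242 to 445 FPKM). Of 7 enterocyte markers 2 rose (Fabp1 and Alpi) and 3 fell, with sums of 1102 to 1409 and 1924 to 4928 FPKM. Fabp1 carried that difference, since the other 6 summed to 789 to 998 FPKM with vehicle and 307 to 834 FPKM with arachidonic acid. None of these markers was at 0 in every library, and the part of these cell types in the receptor values was not tested.

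The genes nearest in profile were taken as those with the smallest Euclidean distance of log2(FPKM + 1) over the 6 libraries after subtracting the vehicle mean. For Fzd2, the largest fall, they were the gene 6330403L08Rik (distance 0.33), Cck, which encodes cholecystokinin (0.37), and Fev, a transcription factor gene (0.38). Fev was at 7.0 FPKM with vehicle and 0.842 FPKM with arachidonic acid. For Lrp5, the largest rise, they were Pparg, a lipid-sensing nuclear receptor gene (distance 0.12), Gjb1, a connexin gene (0.13), and Ech1, an enoyl-CoA isomerase gene (0.13). Pparg was at 24.3, 22.2 and 24.9 FPKM with vehicle and at 37.5, 57.0 and 59.9 FPKM with arachidonic acid, values close to those of Lrp5 in each library.

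Promoter sequences are shown for the genes that passed in the same direction as another member, to let their make-up be compared: Fzd1 and Fzd5, which fell, and Fzd7, which rose beside Lrp5. RefSeq's promoter table (GRCm38.p6) matched 4 of the 10 genes, Fzd1, Fzd4, Fzd5 and Fzd7. Each sequence is the 250 bases before the RefSeq start, 5′ to 3′ on the gene's strand, and the coordinates are those of that table, since for the deposited values the build was not given in the sources used here. Capitals mark matches, on either strand, to 7 short motifs. The core bound by TCF and LEF factors is CTTTGA and the motif of the TEAD factors is GGAATG. For the AP-1 factors the letters searched were TGANTCA, and for the core bound by PPAR receptors AGGTCA. The CCAAT box was searched by the letters of its name, the start-site element known as the TATA box as TATAAA, and the GC box as GGGCGG. Overlapping matches merge.
Fzd1, chr5:4758217-4758466, minus strand: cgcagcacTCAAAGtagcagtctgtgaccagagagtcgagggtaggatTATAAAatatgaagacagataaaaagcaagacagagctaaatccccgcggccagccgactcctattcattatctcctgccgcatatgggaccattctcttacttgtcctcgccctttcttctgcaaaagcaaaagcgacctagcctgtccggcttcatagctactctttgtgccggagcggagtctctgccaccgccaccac
Fzd5, chr1:64737751-64738000, minus strand: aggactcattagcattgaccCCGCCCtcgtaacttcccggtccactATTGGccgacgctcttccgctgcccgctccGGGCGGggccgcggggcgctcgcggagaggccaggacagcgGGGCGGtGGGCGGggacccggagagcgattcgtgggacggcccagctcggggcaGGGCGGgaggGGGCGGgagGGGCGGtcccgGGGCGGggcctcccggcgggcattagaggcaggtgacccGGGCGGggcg
Fzd7, chr1:59481897-59482146, plus strand: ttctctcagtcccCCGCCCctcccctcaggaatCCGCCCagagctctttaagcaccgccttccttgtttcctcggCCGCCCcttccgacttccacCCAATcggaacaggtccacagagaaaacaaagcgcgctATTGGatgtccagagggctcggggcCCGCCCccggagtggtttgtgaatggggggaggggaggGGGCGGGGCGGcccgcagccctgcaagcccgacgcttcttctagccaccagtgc

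The promoters of Fzd1 and Fzd5, both lower with arachidonic acid, differed in composition. GC content was 51.2% for Fzd1, 76.4% for Fzd5 and 65.2% for Fzd7, beside a median of 52.4% over 32851 promoters. The Fzd1 window held 1 match to CTTTGA, as its reverse complement with its first base 242 bases before the start, and 1 to TATAAA at 202 bases, and none to the GC box or the CCAAT box. The TCF and LEF core was found in 13.8% of all promoter windows of this length and the TATA box in 12.4%. The Fzd5 window held 9 matches to the GC box and 1 to the CCAAT box, and the Fzd7 window 6 and 2. The GC box was found in 32.7% of all windows and the CCAAT box in 33.9%. The letters searched for TEAD, AP-1 and PPAR, found in 12.6%, 6.75% and 14% of all windows, are not in these 3 windows. The RefSeq starts of Fzd1 and Fzd7 lie 181 and 277 bases upstream of the gene starts in GENCODE M21. In that annotation the coding sequence of Fzd1, Fzd2, Fzd5, Fzd7 and Fzd8 lies in 1 exon, that of Fzd4 in 2, those of Fzd3 and Fzd6 in 6 each and those of Lrp5 and Lrp6 in 23 each.

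The other genes of the pathway were taken from 11 lists with 114 genes, of which 54 were tested. Of these 13 rose, 10 fell and 31 did not pass. The median log2 difference was -0.01, beside -0.03 over all tested genes, and the share called, 42.6%, was close to the 40.2% over all tested genes. Counts of called genes in single lists are descriptions, to be read beside that 40.2%.

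Ligands and their regulators came first in the pathway. Of 19 Wnt ligand genes 1 was tested, Wnt3, the ligand made by Paneth cells. It fell from 2.80 ± 0.171 to 1.01 ± 0.543 FPKM (log2 difference -0.95, SE 0.20, limma adjusted p = 0.011). Porcn and Wls, which acylate and carry Wnt ligands, did not pass. None of 4 R-spondin genes reached the filter, and of 16 secreted antagonist and Kremen genes only Kremen1, a DKK receptor that acts on LRP6, was tested and did not pass. Of the 4 tested genes of receptor turnover and R-spondin reception Rnf43 rose, from 61.4 ± 4.09 to 94.2 ± 13.3 FPKM (log2 difference 0.60, SE 0.11, limma adjusted p = 0.0080). The other 3, Znrf3, Lgr4 and Lgr5, did not pass.

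**Figure D5:**
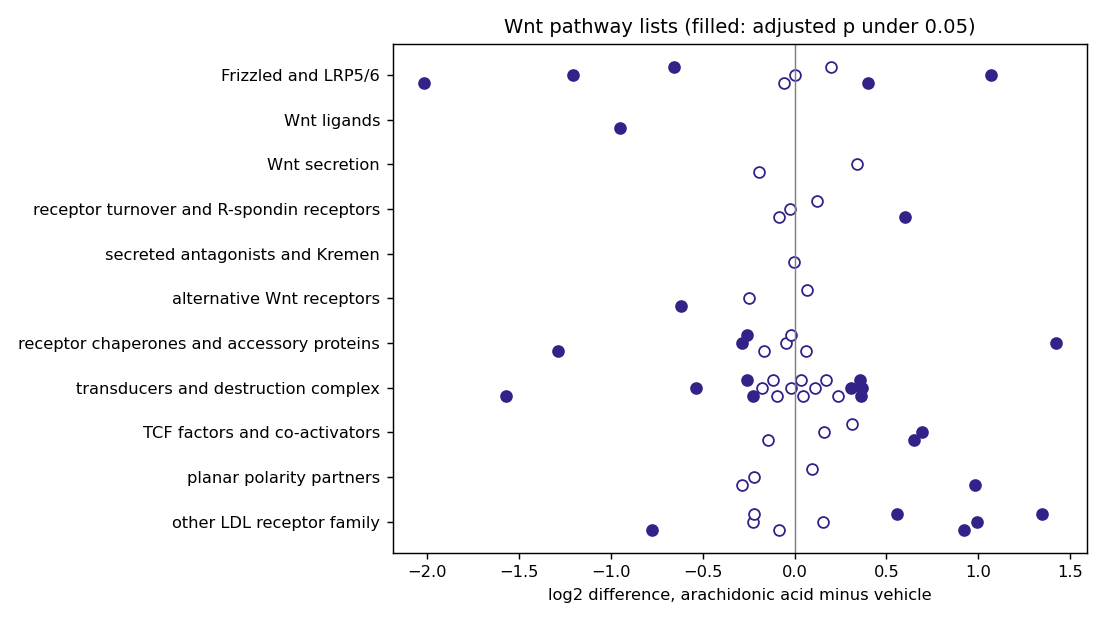
Log2 difference (arachidonic acid minus vehicle, horizontal axis) of each tested gene of the Frizzled and LRP5/6 set and of the pathway lists with a tested gene, with 1 point per gene, filled where the limma adjusted p was under 0.05. Points lie on both sides of 0 in most lists, and Fzd2, at -2.02, has the lowest value shown.

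Genes for partners of the receptors at the membrane were called in both directions, as were 20.8% (higher) and 19.4% (lower) of all tested genes. Of 8 tested chaperones and accessory proteins 1 rose and 3 fell. Tspan12, a tetraspanin that works with FZD4 in Norrin signalling, rose from 54.4 ± 2.23 to 155 ± 56.7 FPKM (log2 difference 1.42, SE 0.27, limma adjusted p = 0.0081). Shisa2, of a family that holds Frizzled proteins in the endoplasmic reticulum, fell from 15.4 ± 0.817 to 5.83 ± 1.65 FPKM. Mesd, the chaperone of LRP5 and LRP6, fell from 25.5 ± 1.01 to 21.2 ± 0.923 FPKM (log2 difference -0.26). Of 3 tested alternative Wnt receptors Ror2, a receptor tyrosine kinase for WNT5A, fell from 16.7 ± 1.36 to 10.8 ± 3.28 FPKM (limma adjusted p = 0.037). Of 4 tested planar polarity genes Vangl1 rose, from 5.27 ± 0.622 to 11.4 ± 0.695 FPKM.

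Downstream, 4 of 17 tested transducers and destruction complex genes rose and 4 fell, beside 20.8% and 19.4% of all tested genes. Ctnnb1, beta-catenin itself, rose from 427 ± 17.0 to 546 ± 5.98 FPKM (log2 difference 0.35). Dvl2, a Dishevelled gene, fell by 0.54 on the log2 scale. Gnao1, a G protein subunit gene, fell from 2.75 ± 0.195 to 0.267 ± 0.0959 FPKM, and it passed the filter only through its vehicle values. Of 5 tested TCF factors and co-activators 2 rose, Bcl9 by 0.69 and Tcf7 by 0.65 on the log2 scale.

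Among 9 tested relatives of LRP5 and LRP6 in the LDL receptor family, 4 rose and 1 fell. The shares over all tested genes were 20.8% and 19.4%. Lrp8, a reelin receptor gene, rose from 16.1 ± 0.294 to 33.1 ± 2.99 FPKM (log2 difference 0.99, SE 0.08, limma adjusted p = 0.00083), a log2 difference near that of Lrp5. Lrp10 rose from 56.8 ± 3.69 to 83.9 ± 1.07 FPKM, and Lrp11 fell from 2.92 ± 0.387 to 1.29 ± 0.240 FPKM. The other two that rose, named after their values were seen, were Vldlr, at 1.35 on the log2 scale, and Lrp1, at 0.92.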

How the data were processed

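RNA of 3 vehicle and 3 arachidonic acid libraries was compared. The deposited values are FPKM that the authors scaled by gene length and by assigned fragments, a unit read from the numbers themselves because no label states it. Per the submitters' processing notes, the tools were featureCounts 1.5.0-p3, HISAT2 2.0.5 and StringTie 1.3.3b, with no roles or order. Build, annotation and strand setting were not given in the sources used here. Values of overlapping and antisense genes are uncertain for this reason. Of 53953 rows, 53274 were matched to a symbol and 53360 to a mean transcript length in GENCODE M21. FPKM times length gave whole multiples of 1 step per library for 96.3% to 96.8% of values under 100 fragments (within 0.1), which gives the depth and the fragments quoted, and 9 of the 10 receptor genes were whole in every library. Fzd8 was not, so its fragments are not quoted.

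The test was limma 3.58.1 in R 4.3.3 with a mean-variance trend on log2(FPKM + 1) of genes whose mean reached 1 FPKM, two-sided p-values and Benjamini-Hochberg adjustment over all tested genes, checked on simulated data. The receptor genes and lists were chosen with earlier results of these data known. All 10 receptor genes are named, up to 3 called genes per pathway list with the smallest p, and 3 nearest profiles for the largest rise and fall. Alternatives were quantile normalization, TPM rescaling, median-of-ratios scaling, a pseudocount of 0.1, testing all rows, a mean of 5 FPKM or more, the replicate block, limma-voom on recovered fragments and each library left out. All else used matplotlib 3.10.9, pandas 2.3.3 and numpy 2.4.6 under Python 3.11.15. Promoter letters were searched on both strands. No protein sequences are printed.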

Additional observations from a re-analysis of the deposited data

How the results depend on the processing

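Fzd1 and Fzd2 were lower and past the threshold under all 13 alternatives that could test them. Their log2 differences were -2.18 to -1.15 and -3.22 to -1.88. The largest came with a pseudocount of 0.1 and limma-voom, which do not add 1 to low FPKM. Every fit with a filter admitted both genes only through their vehicle values, so those calls are descriptions. With no filter the limma adjusted p was 0.017 for Fzd1 and 0.019 for Fzd2. Lrp5 passed under 13 of 14, Fzd5 under 9 of 14 and Fzd7 under 7 of 14, with the same direction throughout. The count of receptor genes higher, 2 with all libraries, was 0 with no filter on low values and 1 with quantile normalization and with the replicate block, and 1 to 2 with a library left out. The count lower, 3 with all libraries, was 1 with a minimum mean of 5 FPKM, which removes Fzd1 and Fzd2, and 2 to 3 with a library left out. Over all genes 5192 were called, 2055 with no filter and 2969 to 7746 with a library left out. The share called higher shifted with TPM rescaling (3090 higher and 2050 lower) beside 2690 and 2502. Quantile normalization gave 2435 and 2977. Fzd8 changed sign around 0 with a pseudocount of 0.1 (-0.0078), quantile normalization (-0.025), limma-voom (-0.039), and without vehicle replicates 1 and 3 (-0.0063 and -0.027) and arachidonic acid replicates 2 and 3 (-0.10 and -0.018), and Lrp6 with TPM rescaling (0.00028), and with a library left out it ranged from -0.10 to 0.13 for Fzd8. Neither passed under any alternative run, and the cause was not tested.

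The groups share replicate numbers, but the deviations of same-numbered libraries from their group means correlated at -0.081, 0.21 and -0.062 across 12913 genes, which are not independent replicates, so the numbers were not taken as pairs. With the replicate block 4261 genes were called, and 1 receptor gene was higher and 3 were lower. A planned quasi-likelihood count test was not run, because the deposited values are not counts. On the recovered fragments limma-voom was run instead. The limit on fragments given for Fzd6 covers counting error only. The intervals given for differences come from the limma fit and, like its p-values, describe library-to-library spread.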

Other observations

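Genes named here were chosen after their values were seen. Apart from Kremen1, none reached the mean of 1 FPKM that the test required, so no test is given. Fzd9, a Frizzled outside the 10 described, was at 0.385, 0.143 and 0.328 FPKM with vehicle. With arachidonic acid it was at 0.782, 0.821 and 1.05 FPKM. The groups did not overlap, which was also so for 55.0% of all tested genes. Fzd10 was listed at 0 in 5 libraries and at 0.0329 FPKM in vehicle replicate 1. Kremen2, a DKK receptor that acts on LRP5 and LRP6, was at 0.0882, 0.232 and 0.0489 FPKM with vehicle and at 0.520, 2.48 and 2.33 FPKM with arachidonic acid, again with no overlap. Its relative Kremen1, which was tested, was at 8.25 to 9.34 FPKM with vehicle and 8.70 to 8.75 FPKM with arachidonic acid. Lrp3, an LDL receptor relative, was at 0.620, 0.675 and 0.453 FPKM with vehicle and at 0.187, 0.107 and 0.0391 FPKM with arachidonic acid.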
